A study of Mus musculus with 16 samples.

Results

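Human APOE is 1 row of the deposited count table, the only human Ensembl identifier (ENSG00000130203.9) among 39057 rows, of which the other 39056 are mouse genes. It was described here over 16 libraries, together with the mouse genes whose transcripts rose or fell with it inside each genotype. The libraries came from primary cortical brain endothelial cells of targeted replacement mice, in which human *APOE* is expressed from the endogenous mouse promoter, so all cultures carry a human allele and none is wild-type. There were 8 *APOE3* and 8 *APOE4* libraries, each with its own replicate number, with 4 males and 4 females per genotype. In the paper a replicate is either a single animal or an isolation from grouped animals, and its main text does not say which holds here. The mice were 21 to 28 days old, the cultures were selected with puromycin (8 µg/ml) and were otherwise untreated. The RNA was poly-A selected (100 ng, 17 cycles of PCR, paired reads of 50 nt).

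ApoE is a secreted lipid carrier. It is loaded with cholesterol and phospholipid by ABC transporters, is taken up by endocytic receptors on many cells, and its gene is a classical target of the liver X receptors (LXR), which sense oxysterols. In the brain astrocytes are its best known source, and microglia, mural cells and endothelial cells also make it. The apoE3 and apoE4 proteins differ by a single amino acid, and APOE4 is the major genetic risk factor for late-onset Alzheimer's disease.

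The transcript measured here is human, whereas the sequence upstream of it is that of mouse Apoe, on the minus strand of chromosome 7. RefSeq (GRCm38.p6) places the 250 bases before the first listed start of Apoe at chr7:19699189-19699438. They are shown 5′ to 3′ along the strand of the gene because they are the stretch from which *APOE* is transcribed in both genotypes, with capitals for the letters CCACCC, searched on both strands. In this window they are found from 185 and from 181 bases before the start, and these matches overlap. Of the 9548 tested genes with a promoter entry, 32.9% hold this motif in the same window, and the letters CACGTG (the E-box), TTATGTAA (the D-box), GGGCGG (the GC box) and CCAAT are not in that of Apoe.
Apoe: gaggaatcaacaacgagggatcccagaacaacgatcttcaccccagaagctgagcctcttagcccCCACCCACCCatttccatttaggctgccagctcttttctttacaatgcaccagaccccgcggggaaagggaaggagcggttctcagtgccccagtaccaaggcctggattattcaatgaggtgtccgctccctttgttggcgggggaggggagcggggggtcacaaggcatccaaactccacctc

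APOE was lower in *APOE4* than in *APOE3* brain endothelial cells. In *APOE3* libraries its level was 1043 CPM (the count relative to the TMM-scaled library size) in replicate 25, 1368 in replicate 26, 1089 in replicate 27, 1003 in replicate 28, 1425 in replicate 30, 1107 in replicate 31, 1009 in replicate 32 and 1330 in replicate 33. In *APOE4* libraries it was 609 in replicate 35, 1013 in replicate 36, 871 in replicate 37, 828 in replicate 38, 807 in replicate 39, 767 in replicate 40, 614 in replicate 41 and 856 in replicate 43. The *APOE3* levels fell in a lower range of 5 libraries and a higher range of 3, replicates 26, 30 and 33, with none between 1107 and 1330 CPM, and in *APOE4* replicates 35 and 41 lay below the rest and replicate 36 above. Replicate 36 was also the only *APOE4* library at or above the lowest *APOE3* library, and each of the 8 *APOE4* values lay under the median of *APOE3*, 1098 CPM. The means were 1172 ± 174 and 796 ± 134 CPM (SD, n = 8 each). By edgeR's quasi-likelihood test over 12481 genes the log2 fold change was -0.56, with a 95% interval from -0.75 to -0.36 (SE 0.0986, adjusted p = 0.00542), and in percent the level fell by 32.1. A two-sided exact permutation test over all 12870 assignments gave p = 0.000466. In that comparison 12.8% of all genes tested passed the adjusted p of 0.05. These levels rested on 7672 to 22318 reads, or 0.0603% to 0.143% of a library, for which counting alone gives an error of 0.669% to 1.14%. When a cell cycle score was added to the model, an alternative picked with the data in view, the log2 fold change was -0.24 (adjusted p = 0.603), and the parts of genotype and cell cycle in the difference cannot be told apart here.

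**Figure D1:**
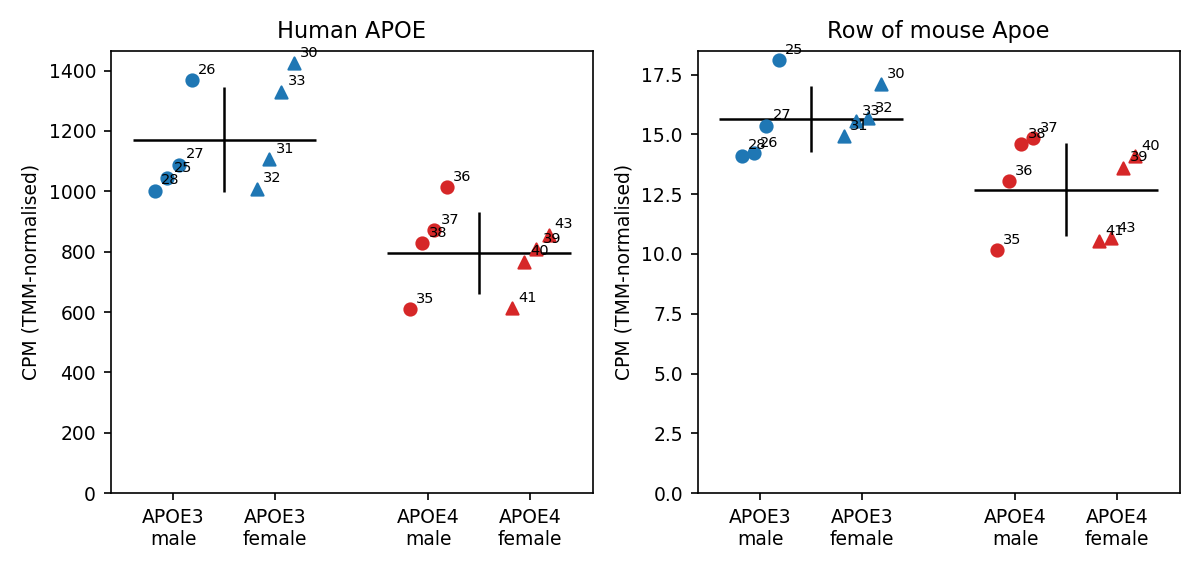
Levels in CPM of human APOE (left) and of the row of mouse Apoe (right) in 16 libraries, labelled by replicate number, with circles for males and triangles for females. Horizontal bars are genotype means and vertical bars ± 1 SD (n = 8). APOE was at 1003 to 1425 CPM in APOE3 and at 609 to 1013 CPM in APOE4 libraries.

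The difference had the same direction in both sexes. In males *APOE3* libraries held 1126 ± 166 CPM and *APOE4* libraries 830 ± 167 CPM, which edgeR put at -0.44 on the log2 scale (SE 0.142, adjusted p = 0.217), and the exact permutation test gave p = 0.0571, with 0.0286 the smallest that 4 against 4 allow. In females the levels were 1218 ± 193 CPM and 761 ± 105 CPM, or -0.68 (SE 0.142, adjusted p = 0.0608), and here no library of one genotype overlapped the other (exact permutation p = 0.0286). Its adjusted p was under 0.05 without *APOE3* replicate 31 (0.0149) or 32 (0.0435) and without *APOE4* replicate 35 (0.0278, edgeR). The effect in females minus that in males was -0.24 on the log2 scale (95% interval -0.63 to 0.15), which the interaction term did not separate from 0 (adjusted p = 1.00, edgeR). Within a genotype, females and males did not differ beyond their spread (exact permutation p = 0.486 in *APOE3* and 0.514 in *APOE4*).

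The mouse Apoe row was not empty. It held 212 to 290 reads in *APOE3* and 128 to 251 in *APOE4* libraries, between 1.04% and 1.84% of the APOE count of the same library. Its level was 15.6 ± 1.37 and 12.7 ± 1.94 CPM, lower in *APOE4* by edgeR's test (-0.30 on the log2 scale, SE 0.0865, adjusted p = 0.0297), and 6 of 8 *APOE4* libraries were below every *APOE3* library. The Apoe share of the APOE count was higher in *APOE4* libraries by 0.255 percentage points (two-sided exact permutation p = 0.0404). Which stretch of Apoe the reads lay on cannot be seen in counts per gene, so reads from mouse sequence left at the locus and human reads assigned to the mouse gene cannot be told apart. Inside the genotypes the Apoe row had a slope on APOE of 0.01 log2 per SD in *APOE3* and 0.13 in *APOE4* (adjusted p = 0.983 and 0.226), and it did not pass the test over both (0.07, adjusted p = 0.335).

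To find the genes that moved with APOE apart from genotype, the log2 CPM of APOE was centred in each genotype and divided by its pooled within-genotype SD, 0.231 on the log2 scale, and every mouse gene was fitted on genotype and this level. A slope is therefore a log2 change per SD of APOE among libraries of the same genotype. Of 12480 mouse genes, 1191 (9.54%) passed an adjusted p of 0.05, of which 496 rose (3.97%) and 695 fell (5.57%) with APOE, and 2979 had an unadjusted p under that value. The slopes were small, with a median of 0.10 among the genes that rose and -0.13 among those that fell. All but 1 of the 1191 had the same sign of slope in *APOE3* and in *APOE4* libraries, the exception being Metrn, named after its values were seen. Over all genes tested 63.9% had the same sign. The 1191 were called on the slope common to both genotypes, which favours genes whose slopes agree, so their count is no separate check of agreement. The libraries are bulk cultures, in which more cells of a kind and more RNA per cell cannot be told apart.

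The genotypes were also fitted with a slope each, which sets the 8 libraries of one genotype beside the other 8. In *APOE3* 67 genes (0.537%) and in *APOE4* 404 genes (3.24%) passed, and 27 passed in both. Of the 67, 64 had the same sign in *APOE4*, and 48 of them an unadjusted p under 0.05 there. Of the 404, 385 had the same sign in *APOE3*, 234 of them with an unadjusted p under 0.05. Over all genes tested 63.9% had the same sign, and an unadjusted p under 0.05 was reached by 20.0% in *APOE4* and 13.6% in *APOE3*. No slope differed between genotypes at an adjusted p of 0.05 (0% of genes by edgeR's quasi-likelihood test, 691 genes unadjusted, smallest adjusted p 0.398, and 2 genes by edgeR's likelihood-ratio test). With *APOE4* replicate 35 left out, the *APOE4* count fell to 1 gene and the count over both genotypes to 405, and without *APOE3* replicate 30 the latter was 762, while all of the 1191 genes kept their direction in either fit. The *APOE4* count was 68 without replicate 41, 123 without 36, 232 without 37, 243 without 43 and 744 without *APOE3* replicate 31, and the *APOE3* count was lowest, at 17, without replicate 33, and 29 to 36 without 26, 27, 30 or 32.

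The gene that rose with APOE at the smallest p was 2810029C07Rik, a noncoding RNA from a bidirectional promoter on chromosome 12 (111572317 to 111574402, GENCODE M21, GRCm38). It was at 39.7 to 53.9 CPM in *APOE3* libraries (median 42.3) and at 21.3 to 43.8 CPM in *APOE4* libraries (median 35.9). Its lowest and highest *APOE4* values were in replicates 35 and 36, the libraries with the lowest and highest APOE, and 7 of 8 *APOE4* libraries were below every *APOE3* library. Its slope was 0.25 log2 per SD (SE 0.0252, adjusted p = 3.16e-05, edgeR), with 0.22 in *APOE3* and 0.28 in *APOE4*. Chst15, a sulfotransferase of chondroitin sulfate chains, came next (slope 0.15, SE 0.0162, adjusted p = 8.59e-05, edgeR). It was the gene most like APOE in its pattern, with a Pearson r of 0.947 over the 16 libraries after centring in each genotype. The others nearest to APOE by this measure were 2810029C07Rik (0.941), Stard13 (0.935), Slc22a8 (0.928) and Tcp11l2 (0.923), and these r are descriptions over libraries that share their totals.

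Slc22a8 encodes OAT3, an organic anion transporter of the blood-brain barrier. It was at 32.0 to 50.7 CPM in *APOE3* libraries (median 35.8) and at 21.9 to 36.2 CPM in *APOE4* libraries (median 27.2), and its highest values were in replicates 30 and 36, which had the highest APOE of their genotypes. Its slope was 0.22 (SE 0.0256, adjusted p = 0.000103, edgeR). Tef, a PAR bZIP transcription factor of clock output, had a slope of 0.20 (SE 0.0233, adjusted p = 0.000114), Cyp2d22, a cytochrome P450, of 0.25 (SE 0.0304, adjusted p = 0.000114) and Cacna1e, a subunit of voltage-gated calcium channels, of 0.25 (SE 0.0326, adjusted p = 0.000286). Tcp11l2 (0.22), Tbc1d8 (0.17), Gabarapl1, an ATG8-family protein of autophagosomes (0.14), and Stard13, a GTPase-activating protein (0.12), complete the 10 genes with the smallest p. In the comparison of *APOE4* with *APOE3*, which shares all libraries with these slopes, the same 10 genes had log2 fold changes from -0.65 to -0.23, each with an adjusted p under 0.05. The share of all genes that passed there, in either direction, was 12.8%.

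The genes that fell with APOE at the smallest p were AI506816, Tuba1c, Mcm6, Tuba1b, Lig1, Rangap1, Tubb6, Loxl4, Mcm5 and Tacc3. Mcm5 and Mcm6 are subunits of the replicative helicase, Lig1 joins Okazaki fragments, Tacc3 is a spindle protein and 3 of the genes encode tubulins. Tuba1b and Tuba1c are near-identical in coding sequence, so reads could be split between them in counting. Mcm6 was at 76.3 to 100.3 CPM in *APOE3* (median 95.1) and at 95.8 to 138.6 CPM in *APOE4* libraries (median 103.7). Its highest value was in replicate 35, the library with the least APOE, and 4 of 8 *APOE3* libraries were below every *APOE4* library. Its slope was -0.15 (SE 0.0211, adjusted p = 0.000409, edgeR), with -0.16 in *APOE3* and -0.14 in *APOE4*. Tacc3 had the steepest slope of the 10 (-0.28, SE 0.0440, adjusted p = 0.000798, edgeR). The genes most opposite to APOE by centred r were Banf1 (-0.904), AI506816 (-0.896), Anapc1 (-0.889), Ppia (-0.886) and Esyt1 (-0.885). Ppia has many processed pseudogenes, so its count is less certain.

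**Figure D2:**
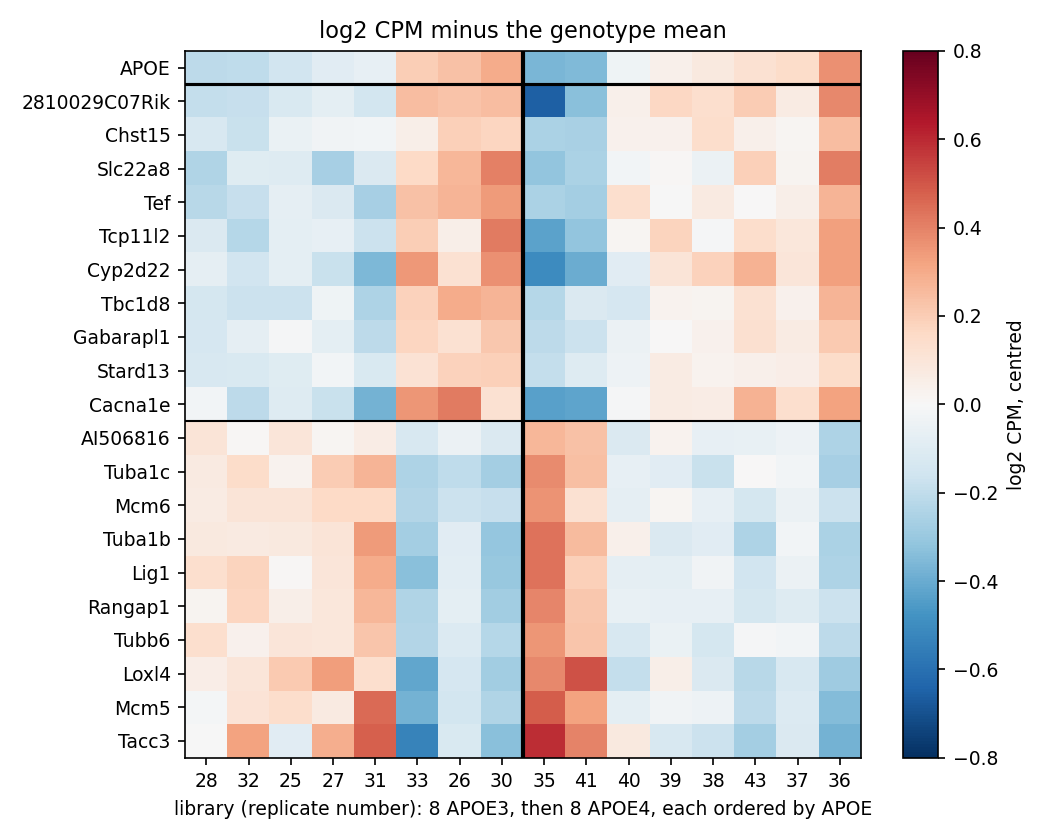
Log2 CPM minus the genotype mean (colour, from -0.8 to 0.8) of APOE and of the 10 genes with the smallest p for rising (upper block) and falling (lower block) with it, in 8 APOE3 and then 8 APOE4 libraries, each set ordered from low to high APOE. In APOE3 replicates 33, 26 and 30 stand apart at the high end, and in APOE4 replicates 35 and 41 at the low end and 36 at the high end.

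Among 40 genes of the cell cycle all 40 fell with APOE, where 5.57% of all genes tested did. The 40 belong to 1 process and were measured in the same 16 libraries, so they are not 40 separate observations. Their slopes ran from -0.33 to -0.12 with a median of -0.26, against 0.000369 over all genes tested, and all 40 were negative in both genotypes. Fitted by genotype, 38 had an unadjusted p under 0.05 in *APOE3* and 39 in *APOE4*, and 1 and 20 passed after adjustment. Over all genes tested, 0.537% passed in *APOE3* and 3.24% in *APOE4*, and 1 call among 40 genes says little. Birc5, which encodes survivin, had the steepest slope (-0.33, SE 0.0675, adjusted p = 0.00518, edgeR), followed by the mitotic cyclin gene Ccnb1 (-0.32) and Hmmr (-0.32). Mki67, the proliferation marker Ki-67, was at 163 to 371 CPM in *APOE3* (median 246) and 312 to 538 CPM in *APOE4* libraries (median 400), with a slope of -0.26 (SE 0.0541, adjusted p = 0.00571). The shallowest slope was that of Pcna, the sliding clamp of DNA polymerase (-0.12, SE 0.0254, adjusted p = 0.00518). In the comparison of genotypes, which shares these libraries, 35 of the 40 were higher in *APOE4* (adjusted p under 0.05, edgeR). Of all genes tested there, 12.8% passed in either direction.

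**Figure D3:**
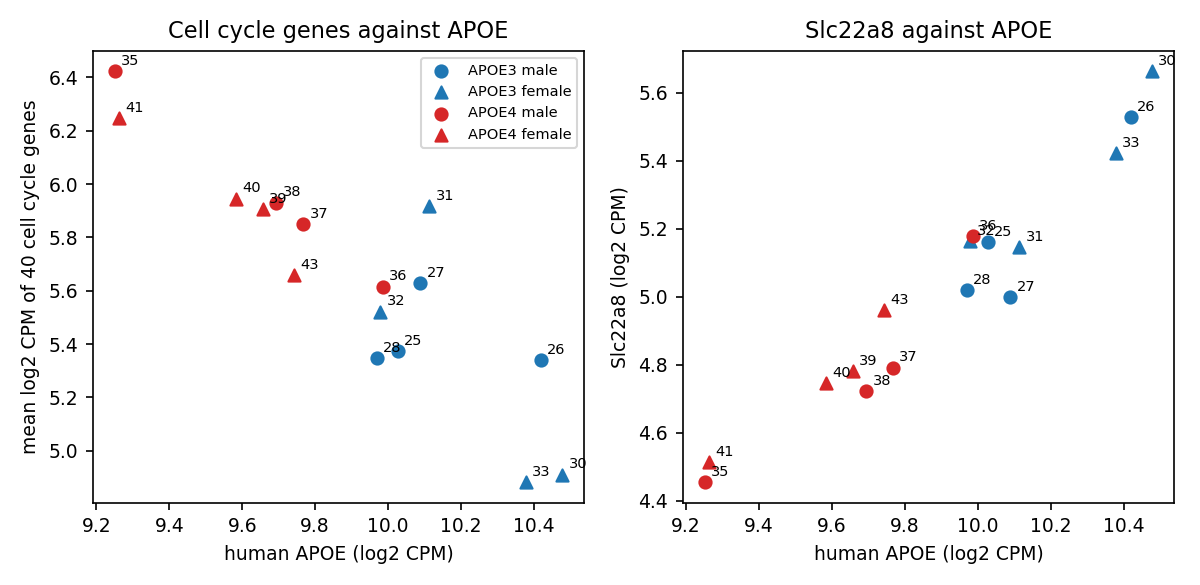
Mean log2 CPM of 40 cell cycle genes (left) and log2 CPM of Slc22a8 (right) against log2 CPM of human APOE in 16 libraries, labelled by replicate, with circles for males and triangles for females. The cell cycle mean is highest in APOE4 replicate 35 (6.42) and lowest in APOE3 replicate 33 (4.88), and the Slc22a8 level is lowest and highest in replicates 35 and 30.

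The mean log2 CPM of these 40 genes had a median of 5.36 in *APOE3* (range 4.88 to 5.92) and of 5.92 in *APOE4* libraries (range 5.62 to 6.42). In *APOE4* it was lowest in replicate 36 and highest in replicate 35, the libraries with the most and the least APOE. Its r with APOE was -0.951 over the 8 *APOE4* libraries and -0.825 without replicates 35 and 41, the farthest from the median APOE level. Over the 8 *APOE3* libraries, whose APOE levels lay in separate ranges, it was weaker, with r of -0.644 (Spearman's coefficient -0.476) and -0.551 without replicates 26 and 30. These are descriptions over libraries that share their totals. With this score, centred in each genotype, as a covariate, 1 gene passed, Chst15 (slope 0.17, adjusted p = 0.0111, edgeR), and 908 had an unadjusted p under 0.05. Under it 2810029C07Rik kept a slope of 0.21 (adjusted p = 0.0571, edgeR), and 1048 of the 1191 genes, which include the 40, kept their direction. The slope of Mcm6 was -0.08 and did not pass. Mcm6 is itself 1 of the 40 genes in the score, so its smaller slope is in part built in. At this threshold a slope on APOE and one on the cell cycle score cannot be told apart in these libraries, Chst15 excepted. That exception rests on the threshold alone, since Chst15 was not tested against genes that missed it, such as 2810029C07Rik. Leaving out *APOE4* replicate 35, 25 of the 40 genes passed. The fit that lacked *APOE3* replicate 30 called 35.

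Promoters of genes from both ends of the list are given as context, each the 250 bases before the first listed start in RefSeq (GRCm38.p6), 5′ to 3′ along the strand of the gene. Tef (chr15:81802423-81802672, plus strand) rose with APOE, and capitals mark the E-box CACGTG to which clock factors bind. Mcm6 (chr1:128359706-128359955, minus strand) fell, and capitals mark matches to the E2F-type letters TTTNNCGC on either strand, of which a pair overlaps. Cdc20 (chr4:118437344-118437593, minus strand), the activator of the anaphase-promoting complex, fell as well (slope -0.30, adjusted p = 0.00813, edgeR), and capitals mark the CHR letters TTTGAA and the CCAAT box, motifs known from genes of mitosis. They were picked as called genes that hold the motifs.
Tef: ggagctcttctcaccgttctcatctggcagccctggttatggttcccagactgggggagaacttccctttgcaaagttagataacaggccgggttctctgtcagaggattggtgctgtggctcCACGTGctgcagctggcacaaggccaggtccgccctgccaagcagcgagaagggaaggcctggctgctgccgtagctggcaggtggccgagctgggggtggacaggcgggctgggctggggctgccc
Mcm6: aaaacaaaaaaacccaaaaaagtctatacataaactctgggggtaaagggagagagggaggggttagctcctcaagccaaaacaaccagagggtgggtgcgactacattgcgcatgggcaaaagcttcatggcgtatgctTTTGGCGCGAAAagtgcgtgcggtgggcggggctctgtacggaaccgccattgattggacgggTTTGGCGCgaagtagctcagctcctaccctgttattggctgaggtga
Cdc20: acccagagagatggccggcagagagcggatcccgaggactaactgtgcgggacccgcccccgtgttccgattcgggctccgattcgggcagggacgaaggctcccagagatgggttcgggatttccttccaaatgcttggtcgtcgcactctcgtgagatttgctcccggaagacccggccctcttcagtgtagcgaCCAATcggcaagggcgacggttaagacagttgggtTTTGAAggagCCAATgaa

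Both strands were searched in the same window of each gene. CCAAT was held by 36.7% of all tested genes with a promoter entry (9548 genes), by 49.9% of those that fell with APOE (573 genes) and by 37.8% of those that rose (392 genes). TTTGAA was held by 982, 80 and 27 of these genes in the same order, and TTTNNCGC by 7.54%, 8.73% and 6.63%. CACGTG was held by 8.5%, 8.38% and 7.4%, GGGCGG by 61.1%, 63.7% and 63.8%, CCACCC by 32.9%, 32.6% and 36.0%, and TTATGTAA by 0.408%, 0.349% and 0.765%. Of the 32 cell cycle genes with an entry, 26 held CCAAT and 8 held TTTGAA, and of 16 clock genes 5 held CACGTG. These shares are descriptions and were not tested.

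Of the receptors and docking proteins for apoE, 22 of 27 were tested, 1 rose and 3 fell with APOE, and the median slope was -0.02. The counts in this and the following lists are to be read against the 3.97% of all genes that rose and the 5.57% that fell, and a single call among 10 or so genes is near that background. Mylip, which encodes the ubiquitin ligase IDOL, rose (slope 0.12, SE 0.0242, adjusted p = 0.00445, edgeR). It was at 35.5 to 48.6 CPM in *APOE3* and 31.5 to 43.1 CPM in *APOE4* libraries, so the genotypes overlapped. Lrp8, an apoE receptor known from reelin signaling (-0.09, adjusted p = 0.0107), and Hspg2, the heparan sulfate proteoglycan perlecan (-0.07, adjusted p = 0.00849), were among those that fell. Lrp1, the main endocytic receptor of apoE in many tissues, had a slope of 0.06 and did not pass. Trem2 and Lrp1b had 0 reads in every library.

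Among genes of apoE lipidation and cholesterol efflux, 10 of 15 were tested, 2 rose and 2 fell. Pltp, the phospholipid transfer protein, rose (slope 0.14, SE 0.0259, adjusted p = 0.00301, edgeR), from a lowest level of 257 CPM in *APOE4* replicate 41 to a highest of 455 CPM in *APOE3* replicate 33. Abca1, the transporter that loads lipid onto apoE, rose with a slope of 0.07 (SE 0.0182, adjusted p = 0.0251, edgeR) at 318 to 404 CPM over all libraries. Abcg1, a second sterol transporter, fell (-0.09, adjusted p = 0.0314), as did Soat1, which esterifies cholesterol for storage (-0.12, adjusted p = 0.00910). Of 14 tested LXR targets 3 rose, namely Pltp, Mylip and Abca1, and 2 fell, namely Abcg1 and Fasn, the fatty acid synthase (-0.14, adjusted p = 0.0247), with a median slope of 0.00492. Of 12 tested nuclear receptors and cofactors of this pathway 1 rose, Rxrb (0.06, adjusted p = 0.0330), and the LXR genes Nr1h2 (0.04) and Nr1h3 (0.00316) did not pass. Of 25 genes of sterol synthesis under SREBP2, 3 fell, among them Fdft1 (-0.12) and Dhcr7 (-0.12), and the median was -0.03. Each of these lists had members without a call, and in those of lipidation and LXR targets calls went in both directions.

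Other apolipoproteins were mostly absent. Of 24 genes 8 had 0 reads in all libraries, among them Apoc1 and Apoc2 beside Apoe, 6 were tested and 0 passed (edgeR), the slopes running from -0.08 to 0.08. These slopes over both genotypes hide opposite signs. In *APOE3* 0 of the 6 were positive (median -0.10) and in *APOE4* 5 were (median 0.17), and 0 passed in either genotype. Apod was well present, at 271 to 428 CPM in *APOE3* and 307 to 627 CPM in *APOE4* libraries. Of the 10 tested genes next to Apoe on chromosome 7, 1 rose, Bcam, which encodes a laminin receptor (0.07, adjusted p = 0.0293).

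**Figure D4:**
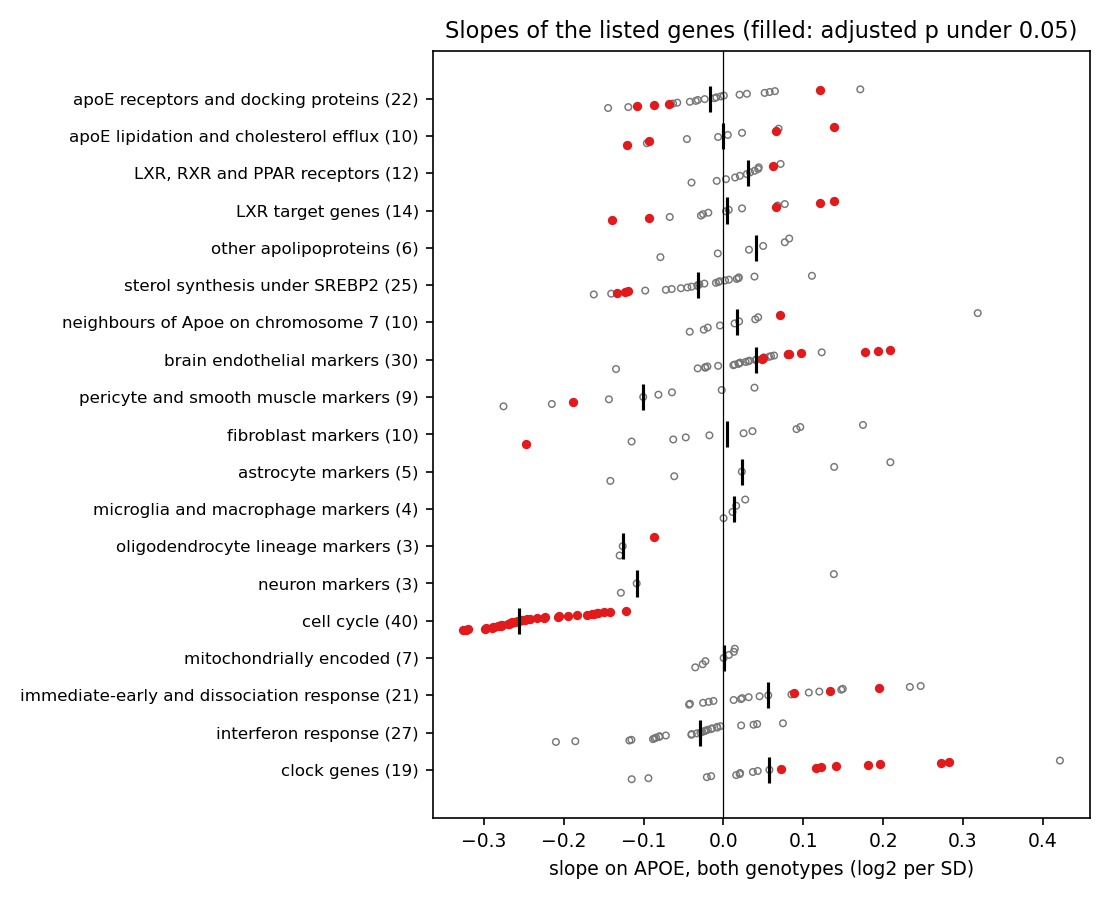
Slope on APOE over both genotypes (log2 per SD) of each tested gene in 19 lists, with the number tested in brackets. Filled points passed an adjusted p of 0.05 and bars are list medians. All 40 cell cycle genes lie left of 0 and are filled, whereas the lists of apoE receptors, lipidation and LXR targets have filled points on both sides.

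Of 30 brain endothelial markers 8 rose with APOE and 0 fell (edgeR), where 3.97% and 5.57% of all genes did. Their slopes were positive for 24 of 30, against 6268 of 12480 over all genes, with a median of 0.04. Those that rose most were the blood-brain barrier transporters Slco1a4 (0.21, SE 0.0285, adjusted p = 0.000375, edgeR), Slc7a5 (0.19, adjusted p = 0.0155) and Slco1c1 (0.18, adjusted p = 0.00518). Slco1a4 was at 308 to 440 CPM in *APOE3* (median 353) and 189 to 370 CPM in *APOE4* libraries (median 304), lowest in replicate 35. Tek (0.08, adjusted p = 0.0175), Vwf (0.10, 0.0488), Egfl7 (0.05, 0.0396), Sox17 (0.08, 0.0179) and Abcg2 (0.05, 0.0434) also rose (edgeR), some near the threshold. With a slope for each genotype, 0 of the 30 markers passed in *APOE3* and 3 in *APOE4* (0.537% and 3.24% of all genes). An unadjusted p under 0.05 was reached by 7 in *APOE3* and 16 in *APOE4*. Calls did not separate barrier transporters from genes of endothelium in general, since the transporter genes Slc2a1 (-0.01), Abcb1a (0.04) and Mfsd2a (-0.13) did not pass, nor did Pecam1 (0.01), Cdh5 (-0.02) and Kdr (-0.02). Of 19 clock genes 8 rose, Dbp (0.28, SE 0.0468, adjusted p = 0.00144, edgeR), Nr1d1 (0.27), Tef (0.20), Nr1d2 (0.18), Per3 (0.14), Rora (0.12), Per2 (0.12) and Per1 (0.07), and 0 fell. Nr1d1, which encodes the repressor Rev-Erb alpha, was at 65.2 to 116.5 CPM in *APOE3* and 35.2 to 77.1 CPM in *APOE4* libraries, lowest in replicate 35 and highest in replicate 30. Arntl (-0.02) and Clock (-0.02), which drive the loop, did not pass. Of 21 genes of the immediate-early and dissociation response, 3 rose, Klf4 (0.19, adjusted p = 0.000419), Nr4a1 (0.13) and Btg2 (0.09). With the mean cell cycle score as a covariate 0 genes of these 3 lists passed, since Chst15 was the only call.

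**Figure D5:**
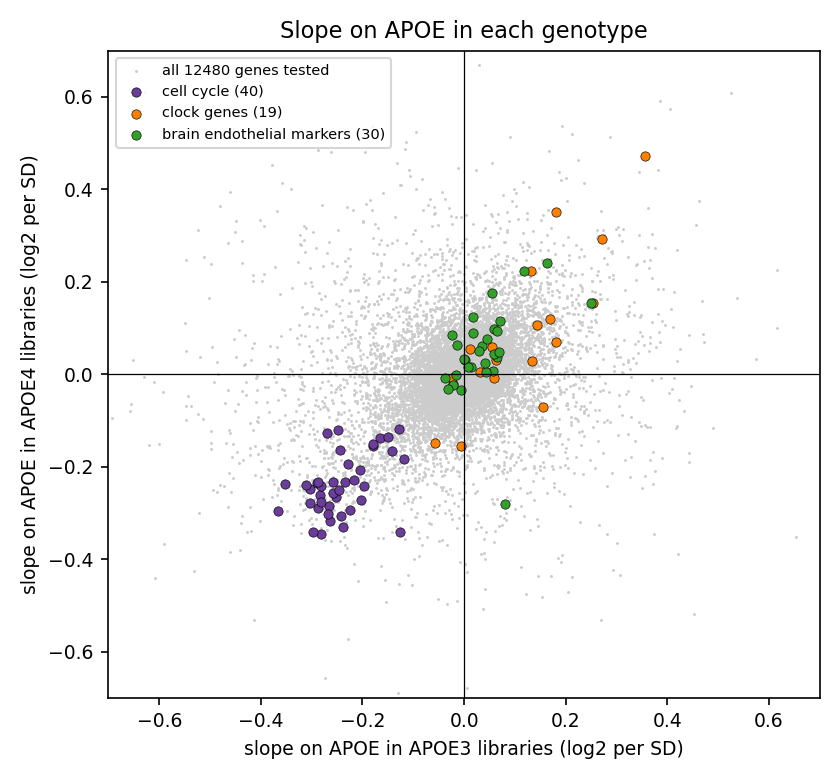
Slope on APOE (log2 per SD) in 8 APOE3 libraries (horizontal) and 8 APOE4 libraries (vertical) for 12480 mouse genes, of which 11 lie outside the axes. All 40 cell cycle genes are negative in both, and 26 of 30 brain endothelial markers and 17 of 19 clock genes have the same sign in both.

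Markers of other cells ranged from absent to clearly present. Gfap had at most 6 reads in a library, and P2ry12, Olig2 and Dcx had 0 in every library. Mural markers were present in part, with Tagln at 114 to 223 CPM over all libraries, Acta2 at 901 to 1798 reads and Rgs5 at no more than 14 reads. Among fibroblast and astrocyte markers, Lama1 had 880 to 1565, Fbln2 250 to 1553, Col1a2 56 to 775 and Gja1 444 to 739 reads. Other members of these lists were near 0, with at most 10 reads for Dcn, 3 for Lum, 2 for Aqp4 and 2 for Slc1a2. Only 10 of 16 fibroblast and 5 of 15 astrocyte markers had enough reads to be tested. Of 9 tested pericyte and smooth muscle markers 1 fell with APOE, Tagln (-0.19, adjusted p = 0.0178, edgeR), with 8 negative slopes and a summed level of 193 to 363 CPM in *APOE3* and 228 to 345 CPM in *APOE4* libraries. Of 10 fibroblast markers 1 fell, Fbln1 (-0.25, adjusted p = 0.0216, edgeR), of 3 oligodendrocyte markers 1, Cnp (-0.09, adjusted p = 0.0220, edgeR), and of 5 astrocyte, 4 microglia and macrophage and 3 neuron markers 0 passed. With the mural score as a covariate 954 genes tracked APOE, and 1160 and 1183 did with the microglia and the fibroblast scores. Of 7 mitochondrially encoded and 27 interferon response genes, 0 passed over both genotypes, and 23 of the latter had a negative slope. By genotype 24 of the 27 were negative in *APOE3* (median -0.07) and 16 in *APOE4* (median -0.00461), and 1 and 0 passed (edgeR).

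A few genes had steep slopes in 1 genotype. Slc7a8, a neutral amino acid transporter, had 0.41 in *APOE3* (adjusted p = 0.00306) and 0.10 in *APOE4* (adjusted p = 0.284), and Htra1, a secreted serine protease, -0.33 (adjusted p = 0.00557) and -0.11 (adjusted p = 0.131). Synpo2, an actin-binding protein, had 0.10 in *APOE3* (adjusted p = 0.234) and 0.21 in *APOE4* (adjusted p = 0.00469). The differences of these slopes had adjusted p-values of 0.659, 0.659 and 0.879. The smallest p of a difference was that of Tnfrsf8, which encodes CD30, with 0.23 in *APOE3* and -0.01 in *APOE4* (adjusted p = 0.398). Its level was 66.2 to 99.1 CPM in *APOE3* and 60.6 to 65.8 CPM in *APOE4* libraries, which do not overlap, and without *APOE3* replicate 30 its slope difference passed (adjusted p = 0.000981, edgeR). The other slope differences with small p were those of Crispld1, Ctps2, Phax and Lyve1, none below 0.398 after adjustment (edgeR's quasi-likelihood test for all).

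Total counts were lowest and highest within *APOE4*, in replicates 35 and 41. Between genotypes no difference in total counts was detected (two-sided exact permutation p = 0.758), and 0 pairs of libraries were identical. Of 12 relations between APOE and a library measure (total count, TMM factor, mitochondrial share, genes detected, and the first and second principal components of the centred levels, in each genotype), 1 passed, with the second component in *APOE4* (Pearson r 0.936, exact permutation p = 4.96e-05, adjusted p = 0.000595, and Spearman's coefficient 0.976, exact permutation p = 0.000397, adjusted p = 0.00476). Without replicates 35 and 41, the farthest from the median, r was 0.795. The 6 relations in *APOE3* were computed across its separate ranges of 5 and 3 libraries, and their exact permutation p-values for Pearson r ran from 0.284 to 0.804.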

How the data were processed

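RNA was sequenced from 16 cultures, and the authors deposited counts of reads per gene without normalization. The submitters' processing notes name STAR, featureCounts, mm10 and hg38, and versions, strand and multi-mapping settings are not given in the sources used here. All 16 columns were mapped to samples by label (0 unmapped). The tests used edgeR 4.0.16 under R 4.3.3 (filterByExpr by genotype, TMM, quasi-likelihood F test, Benjamini-Hochberg adjustment, threshold 0.05), with log2 CPM from a prior count of 2. Slopes came from genotype plus the APOE level, APOE itself left out of the 12480 genes tested. SE is the effect divided by the square root of F. Alternatives used DESeq2 1.42.0, limma 3.58.1 and sva 3.50.0, and fits were tested on simulated data. Promoters were matched by symbol (9548 of 12478 symbols). Reads carry no molecular identifiers, so counting error is a lower limit.

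Total counts were 12717847 to 18624417 per library. Genes named are APOE and Apoe, the 10 smallest p per direction among genes with slopes of the same sign in both genotypes, 3 per direction in each genotype, 5 for the slope difference, up to 4 largest slopes and all calls per list, and the 5 nearest to APOE by r in each direction. Some list members that were called are not reported here. A few other list members were named after their values were seen. The members and lists were chosen with earlier results of these data known.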

Additional observations from a re-analysis of the deposited data

Results flagged for a closer look

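The levels of 108 genes were examined in each genotype for a library apart from the other 7, by the gap to its nearest neighbour over the range on the log2 scale (Dixon's 95% critical value for 8 libraries). Of 216 sets 2 stood out, where chance flags about 1 in 20, or 10.8. Sox17, an endothelial transcription factor, was at 193.6 CPM in *APOE3* replicate 30 with the next library at 169.4 CPM. Btg2, an antiproliferative immediate-early gene, was at 307.9 CPM in *APOE3* replicate 33 with the next at 266.2 CPM. Both libraries were among the 3 *APOE3* libraries with the highest APOE. The 108 genes were APOE, Apoe, the genes named by slope or likeness, and the list members that were called. Sox17 and Btg2 were thus examined because they rose with APOE, so a high value in such a library is in part built in by this choice.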

How the results depend on the processing

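No paired analysis was possible because no replicate number occurs in both genotypes. The counts of genes tracking APOE, genes rising with APOE and genes falling with APOE (1191, 496 and 695) became 80, 58 and 22 with ranks of APOE, 3532, 1755 and 1777 without centring or a genotype term, 175, 90 and 85 without *APOE4* replicates 35 and 36, and 1, 1 and 0 once the cell cycle score entered the model (edgeR, 908 unadjusted). Chosen after seeing the data, they were 119, 52 and 67 in males, 140, 53 and 87 in females, and the genotype difference in APOE with the cell cycle score was -0.24. The likelihood-ratio test called 189 genes in *APOE3*, 647 in *APOE4* and 2 slope differences, and passed the APOE genotype difference in females (-0.68, adjusted p = 0.00219, edgeR). Leaving out 1 library gave -0.62 to -0.51 for the genotype difference (16 of 16 past the threshold), -0.76 to -0.59 in females (3 of 16), 405 to 1400 tracking, 178 to 619 rising and 227 to 781 falling genes, 17 to 89 in *APOE3*, 1 to 744 in *APOE4*, and 0 to 1 slope differences, the 1 being Tnfrsf8 without *APOE3* replicate 30. In *APOE4* r of APOE turned to -0.261 with the mitochondrial share and -0.323 with the first component without replicates 35 and 41. The cause was not tested for any of these. DESeq2 (1424), voom (1177), other size factors (1192), both low-count filters (999 and 1235), sex (1209) and a surrogate variable (1209) stayed within 1.5 times of 1191. The surrogate variable was estimated with the APOE level kept in its model, so that fit is no check for an axis that moves with APOE. Counting error was at most 1.14% for APOE.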
